A study of Mus musculus with 48 samples.

Results

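The comparison described here sets 6 libraries of primary mouse astrocytes given a Cre virus against 6 given an empty virus, 12 of the 48 libraries in the series. All libraries with the genotype Gas*-BERKY3 were taken and split by the virus named in their labels, with the agonist as a covariate. The astroglial cells came from brains of mice heterozygous for the Gas*-BERKY3 allele, which encodes a BERKY3 biosensor for the active form of the G protein subunit Gas, so every group carried the allele. The cells were seeded at 430000 per well and received an adeno-associated virus, diluted 500-fold, that carried either Cre recombinase behind the CMV promoter (AAV2/1-CMV-Cre) or no gene (AAV2/1-CMV-empty). The medium was replaced 90 min before RNA isolation, either without agonist or with 1 µM isoproterenol, an agonist of beta-adrenergic receptors. This gave 4 groups of 3 libraries: empty virus in medium, Cre virus in medium, empty virus with isoproterenol and Cre virus with isoproterenol. The age and sex of the mice were not given in the labels, nor whether replicates came from separate animals or cultures, so p-values measure only the spread between these samples, which may be technical. Cre recombinase and the biosensor were present together in each Cre library, so their effects cannot be told apart.

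Cre recombinase recombines DNA at its recognition sites and is used to switch on a transgene that is held silent by a stop sequence. Gas couples receptors such as the beta-adrenergic receptors to adenylyl cyclase, and the cyclic AMP that is made activates protein kinase A and transcription through CREB. Primary astroglial cultures are known to hold cells of the oligodendrocyte lineage and microglia beside astrocytes. Oligodendrocyte precursors are marked by the receptor PDGFRA, which binds the mitogen PDGF-A, and by the transcription factors SOX10, OLIG1 and OLIG2. Foreign nucleic acid can induce interferons, which raise a shared set of antiviral genes.

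The biosensor transcript, listed as BERKYcoreseq, followed the virus label in all 12 libraries. Its level is given as CPM, the count scaled to the library's total count. In medium it was 0, 0.120 and 0 CPM with empty virus and 27.3, 24.2 and 24.5 CPM with Cre. With isoproterenol it was 0, 0.183 and 0.139 CPM with empty virus and 19.1, 20.6 and 20.9 CPM with Cre. The groups did not overlap, and the ratio of summed counts was 736.8 in medium (2063 against 2 counts, 95% exact interval 203.7 to 6088) and 180.5 with agonist (1400 against 8 counts, 91.3 to 418.8), where the intervals cover counting error only. Total counts ran from 16.3 to 35.9 M (mega) counts, with group medians of 20.9 M and 31.8 M for empty virus and Cre in medium and 19.1 M and 19.7 M with agonist. The astrocyte markers Gfap (3613 to 4137 CPM), Aqp4 (1121 to 1414 CPM) and Slc1a3 (1698 to 2007 CPM) were present in every library.

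Few genes differed between the viruses. The 12 libraries were fitted together with the agonist as a covariate, by edgeR's quasi-likelihood test, and calls were made where the p adjusted by Benjamini and Hochberg's method fell under 0.05. Of 18103 genes tested 13 were called (0.0718%), of which 12 rose with Cre (0.0663%) and 1 fell (0.00552%). The risers were the receptor gene Pdgfra, the transcription factor gene Sox10, the neural progenitor gene Vxn, and Dscam, Cacng4, Tril, Myo5b, Kcnj6, Mmp15, Cspg5, Cldn11 and Nnat. Trim30a, an interferon-induced gene, fell. The count was 6 to 19 when 1 library was left out, lowest without Cre replicate 3 in medium. It was 6, 2 and 1 without the 4 libraries numbered 1, 2 or 3, fits with fewer samples that were chosen after seeing the data. At an unadjusted p under 0.05 there were 704 higher and 547 lower genes. The median absolute log2 change over all genes was 0.06 against a median standard error (SE) of 0.08, and 2 of the 15578 genes with a mean of at least 1 CPM differed more than 2-fold. The plot of change against level shows the called genes and 2 of the gene lists described below.

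**Figure D1:**
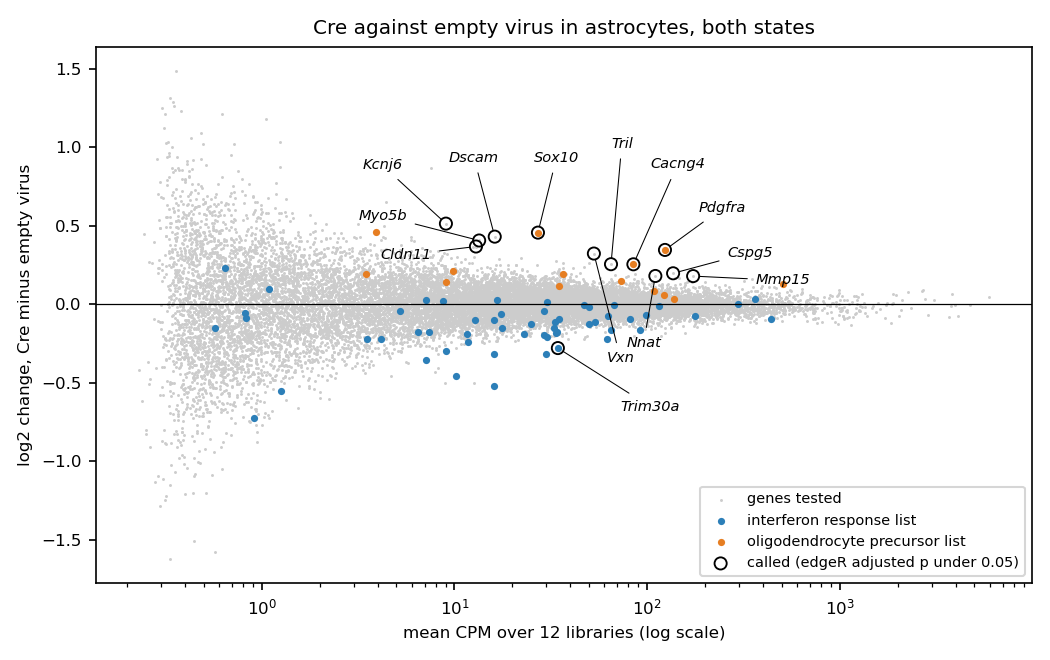
Log2 change with Cre virus (vertical axis) against mean CPM over the 12 astrocyte libraries (horizontal axis, log scale) for the 18103 genes tested. Black circles mark the 13 called genes, orange points the oligodendrocyte precursor list, which lies above 0 for all 14 members tested, and blue points the interferon response list, of which 47 of 55 members lie below 0.

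Of 14 oligodendrocyte precursor markers tested 3 rose with Cre, and Pdgfra had the smallest p. In medium Pdgfra was at 107.6, 98.8 and 107.5 CPM with empty virus and at 142, 136.8 and 133.1 CPM with Cre. With isoproterenol it was at 110.4, 115.9 and 113.2 CPM with empty virus and at 137.2, 137.5 and 146.4 CPM with Cre. All 6 Cre libraries lay above all 6 empty-virus libraries, and the log2 change was 0.35 ± 0.04 (SE, edgeR adjusted p = 1.74e-06), a 1.27-fold rise. Pdgfra was the single gene called in medium alone (0.39 ± 0.05, edgeR adjusted p = 0.000443, 0.00552% of genes tested).

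Sox10, which encodes a transcription factor that maintains the oligodendrocyte lineage, also rose. It was at 23.5, 20.1 and 24.6 CPM with empty virus and 28.3, 27.5 and 33.7 CPM with Cre in medium. With agonist it was at 21.0, 23.6 and 23.97 CPM with empty virus and 31.4, 31.2 and 36.9 CPM with Cre. The 6 Cre libraries again lay above the 6 empty-virus libraries, with a log2 change of 0.46 ± 0.07 (edgeR adjusted p = 0.000377), or 1.37-fold. Cacng4, which encodes an auxiliary subunit of AMPA-type glutamate receptors, rose by 0.26 ± 0.04 (edgeR adjusted p = 0.00621). Its Cre libraries ran from 83.0 to 101.8 CPM and its empty-virus libraries from 73.7 to 80.9 CPM, without overlap.

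Of the 15 oligodendrocyte precursor markers listed, 14 passed the filter on low counts and Neu4 did not. Pdgfra, Sox10 and Cacng4 rose (3 of 14) and none fell. All 14 log2 changes were above 0, with a median of 0.17, against 50.2% above 0 and a median of 0.00 over all genes tested. As with the other lists, its members were chosen with earlier results of these data known. These shares therefore describe the list and test nothing. At an unadjusted p under 0.05, 9 members were higher, beside 704 of all 18103 genes. Among those that did not pass, Pcdh15, a protocadherin gene, was at 0.46 ± 0.14 (edgeR adjusted p = 0.432), with Cre libraries at 3.91 to 5.22 CPM above empty-virus libraries at 2.58 to 3.85 CPM. Olig1 was at 0.13 ± 0.04 (edgeR adjusted p = 0.347), Cspg4, the NG2 proteoglycan gene, at 0.15 ± 0.06, Lhfpl3 at 0.19 ± 0.08, Matn4 at 0.21 ± 0.10 and C1ql1 at 0.12 ± 0.06. Olig2 (0.09), Nkx2-2 (0.14), Gpr17 (0.19), Tnr (0.06) and Sox8 (0.03), further lineage genes, had log2 changes within 2 SE of 0. The untested Neu4 was at 0 to 0.0557 CPM with empty virus and 0.0613 to 0.163 CPM with Cre.

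The summed level of the precursor markers did not overlap between viruses in either state. It was 1205 to 1297 CPM with empty virus and 1360 to 1436 CPM with Cre in medium, and 1126 to 1208 and 1281 to 1316 CPM with agonist. Without Pdgfra the sums were 1106 to 1189 and 1223 to 1299 CPM in medium and 1016 to 1095 and 1143 to 1179 CPM with agonist, also without overlap. The largest part of these sums was Olig1, with a mean of 509.7 CPM, which on its own overlapped between viruses with agonist. In such bulk RNA, more cells of a type and more RNA per cell cannot be told apart. Cre and empty-virus libraries separated in both states, Cre above, for 4 of the 14 members (28.6%: Cacng4, Pcdh15, Pdgfra and Sox10) and for 116 of all genes tested (0.641%).

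Of 15 markers of committed and myelinating oligodendrocytes 12 were tested, and Ermn, Mog and Opalin were not. Cldn11, the claudin of myelin's tight junctions, rose (1 of 12, median log2 change of the list 0.10, 11 of 12 above 0). It was at 11.5, 10.3 and 11.8 CPM with empty virus and 14.7, 12.8 and 14.6 CPM with Cre in medium. With agonist it was at 11.5, 10.6 and 11.7 CPM against 14.7, 15.1 and 15.9 CPM, again without overlap (0.37 ± 0.08, edgeR adjusted p = 0.0476). Bcas1, a marker of newly formed oligodendrocytes, was at 0.36 ± 0.09 (edgeR adjusted p = 0.116) and separated within each state. Myelin basic protein gene Mbp was at 0.14 ± 0.07 (edgeR adjusted p = 0.712). The genes Mag (0.35), Ugt8a (0.12), Mobp (0.11), Myrf (0.09), Nkx6-2 (0.08), Cnp (0.04) and Mal (0.03) had positive log2 changes that did not pass, and Enpp6 was at -0.45 ± 0.30. Mog, a defining gene of mature myelin, was at 0 to 0.241 CPM, Opalin at 0 to 0.210 CPM and Ermn at 0.0956 to 0.548 CPM. The summed level of the 15 markers was 263.7 to 282.7 CPM with empty virus and 281.9 to 299.9 CPM with Cre in medium, and 278.2 to 290.9 and 291.6 to 307.2 CPM with agonist.

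Vxn, a promoter of neurogenesis, was at 51.0, 46.03 and 45.95 CPM with empty virus and 58.2, 61.0 and 55.9 CPM with Cre in medium, and at 47.9, 43.4 and 47.3 CPM against 61.1, 57.5 and 60.3 CPM with agonist. Its 6 Cre libraries were all above the 6 others (0.32 ± 0.05, edgeR adjusted p = 0.000377). Dscam, a cell adhesion molecule of the immunoglobulin family, was at 14.1, 11.4 and 12.4 CPM with empty virus and 16.7, 18.2 and 19.1 CPM with Cre in medium, and at 15.2, 13.7 and 15.7 CPM against 18.0, 19.5 and 20.2 CPM with agonist. The groups did not overlap (0.43 ± 0.07, edgeR adjusted p = 0.00576). Cspg5, a chondroitin sulfate proteoglycan of the brain, rose by 0.20 ± 0.04 (edgeR adjusted p = 0.0406), from 115.6 to 131.2 CPM with empty virus to 136.7 to 158.3 CPM with Cre. Nnat, an imprinted gene for a small membrane protein, rose by 0.18 ± 0.04 (edgeR adjusted p = 0.0489), at 100.4 to 106.7 CPM against 109.6 to 129.3 CPM. Mmp15, a membrane-type matrix metalloproteinase, rose by 0.18 ± 0.04 (edgeR adjusted p = 0.0394). Its libraries separated within each state but overlapped across states (153 to 176 CPM with empty virus, 169.4 to 195.5 CPM with Cre).

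Tril, Myo5b and Kcnj6 complete the called risers. Tril encodes a cofactor of Toll-like receptors and was at 68.6, 61.1 and 71.2 CPM with empty virus and 79.3, 76.8 and 82.8 CPM with Cre in medium. With agonist both were lower, at 47.7, 54.1 and 52.4 CPM and 62.5, 63.8 and 59.5 CPM. Tril thus separated within each state while isoproterenol lowered it (Cre 0.26 ± 0.05, edgeR adjusted p = 0.00622, and isoproterenol -0.32 ± 0.05, edgeR adjusted p = 4.24e-07). Myo5b, a myosin motor of recycling endosomes, rose by 0.41 ± 0.08 (edgeR adjusted p = 0.0149), with 10.2 to 12.3 CPM in empty-virus and 14.1 to 16.6 CPM in Cre libraries. Kcnj6, a potassium channel opened by G protein beta-gamma subunits, rose by 0.51 ± 0.10 (edgeR adjusted p = 0.0174), but its libraries overlapped in medium, at 6.41, 7.04 and 8.56 CPM with empty virus and 8.52, 11.4 and 10.2 CPM with Cre. The plot of the called genes shows each library.

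**Figure D2:**
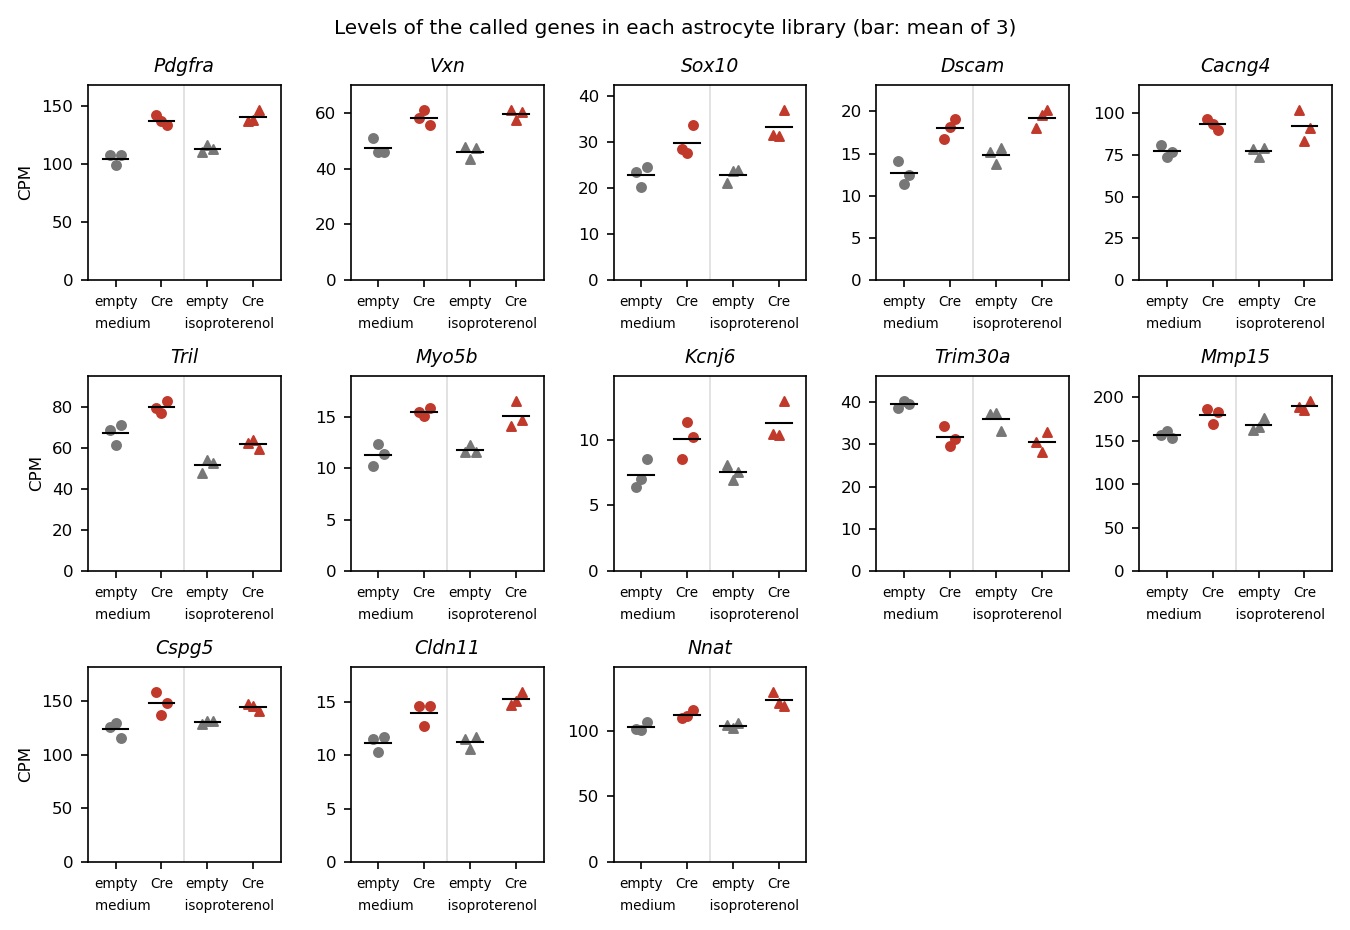
CPM (vertical axes, from 0) of the 13 called genes in each library, with empty virus in grey and Cre virus in red, medium as circles and isoproterenol as triangles, and bars for the mean of 3 libraries. The empty-virus and Cre libraries do not overlap within either state for any gene but Kcnj6, which overlaps in medium.

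How firmly these calls stood differed between genes. Pdgfra, Vxn, Sox10, Dscam, Cacng4 and Tril were called in all 12 fits that left out 1 library. The calls were lost in 4 such fits for Myo5b, 6 for Kcnj6, 8 for Trim30a, 9 each for Mmp15 and Cspg5, and 10 each for Cldn11 and Nnat. The highest adjusted p came without Cre replicate 2 with agonist for Myo5b (0.0994), Trim30a (0.16) and Cldn11 (0.157) and without Cre replicate 3 with agonist for Kcnj6 (0.0848). It came without empty-virus replicate 1 with agonist for Mmp15 (0.209) and Nnat (0.21), and without empty-virus replicate 3 in medium for Cspg5 (0.17), all by edgeR. Without the 4 libraries of 1 number Pdgfra was called each time (edgeR adjusted p up to 0.00383), Sox10 was lost without number 3 (0.0695), and Vxn without number 2 (0.192) or 3 (0.0695). Dscam was lost without number 2 (0.439) or 3 (0.291). Cacng4 (0.0519, 0.192 and 0.184) and Tril (0.0572, 0.413 and 0.141) were lost in all 3 of these fits. No strand setting was given for the counting. The spans of Cacng4, Dscam, Kcnj6, Myo5b, Nnat, Pdgfra, Tril and Vxn each overlap a gene on the opposite strand in an earlier build's annotation. Overlap of exons was not checked, so their counts are uncertain where exons are shared. Trim30a has close paralogs, which leaves its count uncertain too.

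Trim30a, a TRIM-family gene that interferon induces, was the called gene that fell. It was at 38.7, 40.3 and 39.5 CPM with empty virus and 34.5, 29.6 and 31.2 CPM with Cre in medium, and at 37.1, 37.3 and 33.3 CPM against 30.6, 28.2 and 33.0 CPM with agonist. The Cre libraries were lower within each state, and the ranges of the 2 viruses overlapped across states (-0.28 ± 0.06, edgeR adjusted p = 0.0313). Eif2ak2, which encodes the double-stranded RNA kinase PKR, was at -0.22 ± 0.05 (edgeR adjusted p = 0.0571) and also separated within each state. Usp18, a brake on interferon signalling, was at -0.32 ± 0.09 (edgeR adjusted p = 0.304).

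The promoters of Trim30a and Eif2ak2 are shown because they hold the element GAAA, any 2 bases, GAAA, the core that interferon regulatory factors bind, and that of Pdgfra because it was the gene with the smallest p. Each runs 5′ to 3′ from 250 bases before to 50 bases after the start in RefSeq's annotation of mouse build GRCm38.p6, an earlier build than that of the counts, and capitals mark the element on either strand.
Trim30a, start 1, chr7:104465144-104465443, minus strand: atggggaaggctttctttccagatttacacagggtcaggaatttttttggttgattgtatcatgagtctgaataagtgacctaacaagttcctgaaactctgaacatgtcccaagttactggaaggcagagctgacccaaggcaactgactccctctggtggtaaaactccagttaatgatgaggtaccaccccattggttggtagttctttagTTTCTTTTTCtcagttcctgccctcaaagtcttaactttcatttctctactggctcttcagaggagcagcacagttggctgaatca
Eif2ak2, chr17:78882523-78882822, minus strand: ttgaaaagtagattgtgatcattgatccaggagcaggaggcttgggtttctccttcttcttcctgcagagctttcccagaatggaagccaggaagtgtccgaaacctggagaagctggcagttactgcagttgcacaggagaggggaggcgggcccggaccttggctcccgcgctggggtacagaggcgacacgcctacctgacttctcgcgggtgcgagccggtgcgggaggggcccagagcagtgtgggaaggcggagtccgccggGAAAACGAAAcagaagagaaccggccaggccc
Pdgfra, chr5:75152001-75152300, plus strand: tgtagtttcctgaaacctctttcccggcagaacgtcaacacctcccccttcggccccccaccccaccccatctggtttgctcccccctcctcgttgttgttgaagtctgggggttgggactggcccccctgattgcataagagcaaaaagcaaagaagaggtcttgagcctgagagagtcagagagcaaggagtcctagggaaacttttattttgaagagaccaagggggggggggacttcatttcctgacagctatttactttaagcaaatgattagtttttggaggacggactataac
The element begins 36 bases before the start in Trim30a, where it lies on the opposite strand, and 18 bases after it in Eif2ak2. A second annotated start of Trim30a also has it. Of 13 called genes 8 had a promoter in that table, and none of the promoters of the risers held the element, the SOX-type motifs ACAAAG or ACAATG, or the CREB motif TGACGTCA on either strand. The SOX-type motifs share their first 4 letters. In the order given, these occur in 3.44%, 18.7%, 12.6% and 1.79% of the 32851 promoters. The element was present for 20 of 42 interferon list genes with a promoter (47.6%) and 464 of 12476 tested genes (3.72%). A match describes letters, not a bound site.

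Most members of the interferon list had log2 changes below 0 with Cre, and fewer had without the libraries numbered 2. Of 57 genes listed 55 were tested, 1 fell (Trim30a, beside 0.00552% of all genes tested) and none rose. The median log2 change was -0.12 and 47 of 55 were below 0, with 21 lower at an unadjusted p under 0.05. Over all 18103 genes tested 9020 were below 0 and 547 were lower at that threshold. The extremes of the list were Mx2 at -0.725 and Oas2 at 0.233, and 8 members were above 0. Further members were the antiviral genes Ifit1 (-0.52 ± 0.19), Ifi44 (-0.46 ± 0.13) and Oasl2 (-0.31 ± 0.10) and the transcription factor gene Irf7 (-0.30 ± 0.12). None of these passed with the filter on low counts, and they are named here after their values were seen. The antigen presentation genes H2-K1 (0.00), H2-D1 (0.03) and Tap1 (-0.00) were near 0, also named after their values were seen.

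Each library's score on the list was the mean log2 difference of its members from the empty-virus mean of the same state. In medium the scores were -0.08, 0.09 and -0.01 with empty virus and -0.08, -0.25 and -0.07 with Cre, for replicates 1, 2 and 3. With agonist they were -0.09, 0.18 and -0.09 with empty virus and -0.06, -0.20 and -0.11 with Cre. In both states the empty-virus library numbered 2 was the highest and the Cre library numbered 2 the lowest, and the viruses overlapped among the others. Without the 4 libraries numbered 2 the list's median was -0.04, with 26 members above 0 and 29 below and none called, and Trim30a was at -0.20 (edgeR adjusted p = 0.694). Without those numbered 1 or 3 the median was -0.18 and -0.20. What these libraries share was not tested. The precursor list kept a median of 0.15 to 0.17 in the same 3 fits, with 13 or 14 of 14 members above 0. Summed CPM of the interferon list were 2699 to 2909 with empty virus and 2588 to 2675 with Cre in medium, and overlapped with agonist at 2661 to 3017 and 2553 to 2846.

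**Figure D3:**
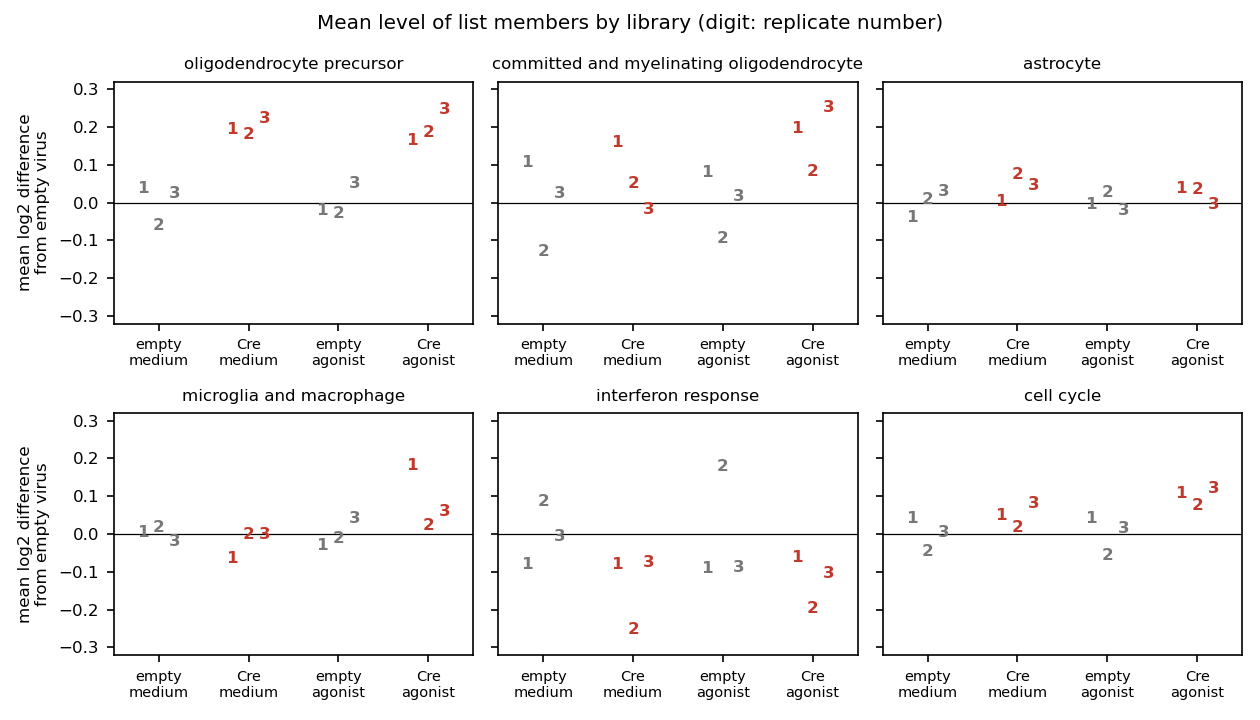
Mean log2 difference from the empty-virus mean of the same state (vertical axis) over the tested members of 6 gene lists, by group (horizontal axis), where each digit is a library's replicate number, grey for empty and red for Cre virus. All Cre libraries lie above all empty-virus libraries for the precursor list, while for the interferon list replicate 2 is the highest empty-virus and the lowest Cre library in both states.

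Genes that sense nucleic acid held no called member. Of 16 tested none was called, with a median log2 change of 0.02 and 9 above 0. Tlr3, an endosomal receptor for double-stranded RNA, was at -0.21 ± 0.06 (edgeR adjusted p = 0.432), Ifih1 at -0.19 ± 0.07 and Rigi at -0.13 ± 0.05, of which the last 2 are also on the interferon list. NF-kB and inflammatory genes had 0 of 25 called and a median of 0.02. For p53 and DNA damage genes 0 of 34 were called, with a median of -0.03 and the lowest p for Pmaip1, which promotes apoptosis (-0.13 ± 0.05, edgeR adjusted p = 0.561).

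No gene of the pathway that the biosensor reads was called. Of 57 genes of Gs and cAMP signalling, which hold receptors, G proteins, adenylyl cyclases, phosphodiesterases and protein kinase A subunits, 0 rose and 0 fell, with a median log2 change of -0.00 and 26 above 0. The smallest p was that of the phosphodiesterase Pde1a (-0.15 ± 0.05, edgeR adjusted p = 0.494), followed by the G protein subunit Gnb2 (0.10 ± 0.04) and the phosphodiesterase Pde3a (-0.11 ± 0.04). Gnas, which encodes Gas and was picked outside the naming rule, was at 0.06 ± 0.03 with a 95% interval of -0.01 to 0.14 (edgeR adjusted p = 0.732). The beta-adrenergic receptor gene Adrb1, also picked outside the rule, was at 0.14 with an interval of -0.08 to 0.35. Of 33 cAMP and CREB targets 0 were called, with a median of 0.02 and 17 above 0, and the smallest p was that of Arc (0.23 ± 0.07, edgeR adjusted p = 0.461). Arc was 1 of 3 members that isoproterenol lowered (-3.32 ± 0.07, edgeR adjusted p = 2.43e-28). Its change with Cre was 0.29 ± 0.08 in medium and 0.08 ± 0.13 with agonist.

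The difference between the virus effects with and without agonist asks whether Cre and the biosensor together changed the response to isoproterenol. No gene was called by edgeR (0% of 18103 genes) or by DESeq2, with 631 genes at an unadjusted p under 0.05 by edgeR. The response itself covered 4282 genes (23.7%), 2156 rising and 2126 falling. Of 33 cAMP and CREB targets 30 rose with isoproterenol, and for these the response with Cre was higher than with empty virus for 15 and lower for 15, with a median difference of 0.00 on the log2 scale. The differences ran from -3.42 for Tac1, a gene with few counts (95% interval -7.60 to 0.76), to 0.44 for Cartpt (-1.08 to 1.97), and 1 of the 30, Rgs2, was at an unadjusted p under 0.05. The 95% interval of the difference lay within ±0.5 for 10 of the 30 and within ±0.3 for 3, so smaller differences were not detectable for most. The genes Tac1, Cartpt, Fos and Rgs2 are given here outside the naming rule. Fos, an early target of CREB, differed by 0.01 (95% interval -0.19 to 0.21) around a response of 2.81 ± 0.04. Rgs2, which shuts off G protein signals, differed by 0.20 (0.00 to 0.40) around 2.12 ± 0.05. With agonist alone Pdgfra (0.30 ± 0.05), Sox10 (0.52 ± 0.10) and Vxn (0.35 ± 0.07) were called (0.0166% of genes; edgeR adjusted p = 0.0446, 0.0446 and 0.0484). In 7 of the 12 fits that left out 1 library none of the 3 was called with agonist alone, among them each fit without an empty-virus library with agonist.

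Cell cycle and immediate early genes lay mostly above 0 without a call. Of 38 cell cycle genes 30 were above 0, beside 50.2% of all genes tested, with a median log2 change of 0.07. At an unadjusted p under 0.05, 8 were higher and 0 lower, beside 704 and 547 of all 18103 genes. The mitotic kinase Plk1 was at 0.22 ± 0.07 (edgeR adjusted p = 0.461), the survivin gene Birc5 at 0.22 ± 0.09 and cyclin Ccna2 at 0.13 ± 0.05. Of 38 immediate early and ERK feedback genes 30 were above 0, with a median of 0.04, and Myc was at 0.13 ± 0.06 (edgeR adjusted p = 0.699). Of these 38, 3 were higher and 1 lower at an unadjusted p under 0.05. Of 34 neural progenitor and glial fate genes Vxn rose and none fell (median 0.03), and Id1 was at 0.15 ± 0.05. Of 24 PDGF and growth factor receptor genes Pdgfra rose and 16 were below 0 (median -0.02). Bcan, the proteoglycan brevican on the matrix list, was at 0.16 ± 0.04 (edgeR adjusted p = 0.0683) and separated within each state, while 23 of 35 matrix genes were below 0 (median -0.03, 0 called).

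The other lists held no called gene. Their median log2 changes were 0.02 for 31 reactive astrocyte genes, -0.02 for 30 SRF and MRTF targets, 0.01 for 26 unfolded protein and amino acid stress genes, 0.01 for 15 heat shock genes and 0.01 for 23 cholesterol synthesis genes. The Rosa26 locus is a common site for Cre-dependent transgenes, although the labels do not name the biosensor's site. Of its 8 tested genes and neighbours none was called (median 0.04). The locus transcript Gt(ROSA)26Sor was at 0.32 ± 0.16 (edgeR adjusted p = 0.719), and overlaps Thumpd3 (-0.02). Brpf1 was at -0.09, Camk1 at 0.08, Ogg1 at 0.07, Setd5 at -0.05, Lhfpl4 at 0.05 and Mtmr14 at 0.02. Cpne9, the ninth listed, was not tested (0 to 0.241 CPM).

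**Figure D4:**
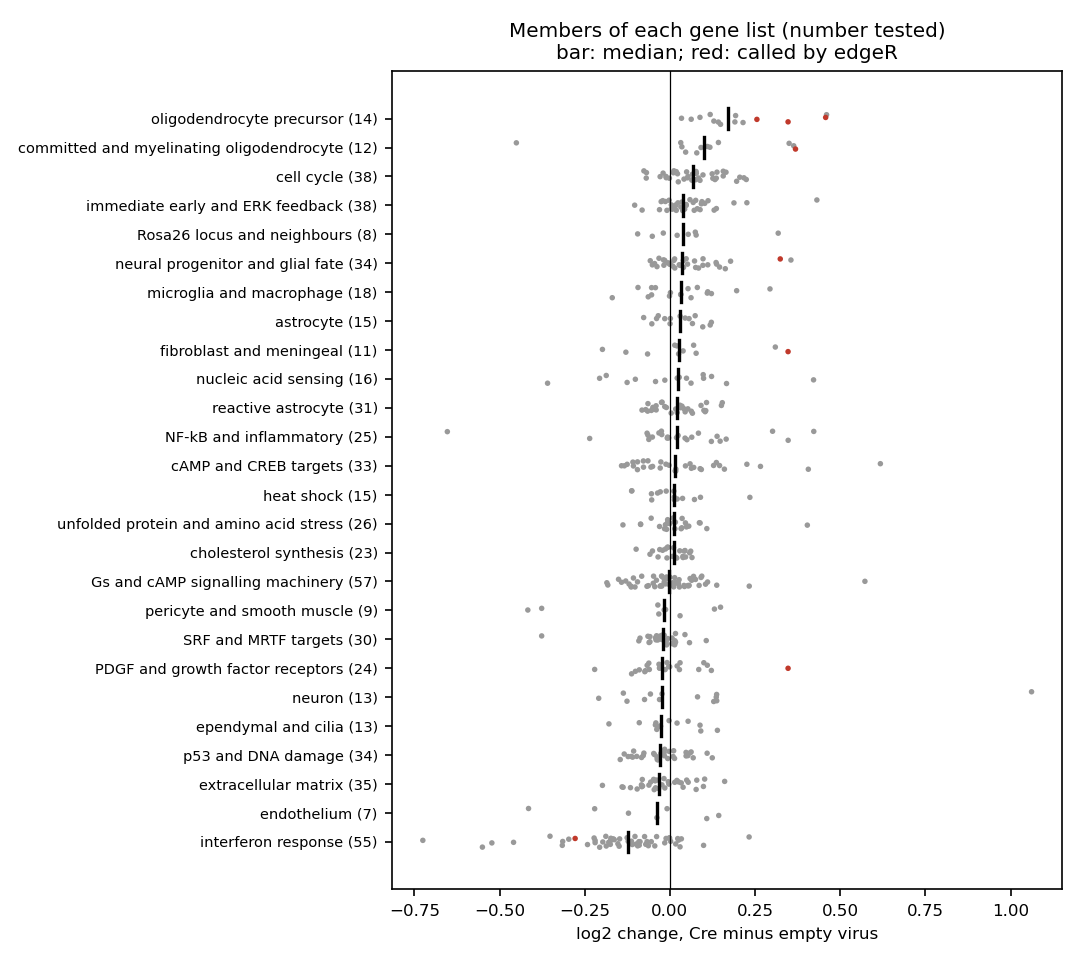
Log2 change with Cre virus (horizontal axis) of each tested member of the 26 gene lists (vertical axis, number tested in brackets), with black bars for the list median and red for called genes. The medians run from -0.12 for the interferon response list to 0.17 for the oligodendrocyte precursor list, and all others lie between -0.04 and 0.10.

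Markers of other cell types are described here beside those of the oligodendrocyte lineage. Of 15 astrocyte markers 0 were called and 10 were above 0, with a median log2 change of 0.03. At an unadjusted p under 0.05, 5 were higher and 1 lower, beside 704 and 547 of all 18103 genes. Aldoc was at 0.12 ± 0.04 (edgeR adjusted p = 0.457). Aldh1l1 was at 0.10 ± 0.03, with Cre above empty virus within each state. The sums of the 15 markers overlapped in both states (11420 to 12040 and 11770 to 12050 CPM in medium, 11330 to 11900 and 11570 to 12260 CPM with agonist). Of 18 microglia and macrophage markers 0 were called (median 0.03), and sums overlapped, at 427.7 to 452.5 and 411 to 448.1 CPM in medium and 427.9 to 450.5 and 441.9 to 481.1 CPM with agonist. Of 10 endothelial markers 7 were tested, 0 called and 5 below 0 (median -0.04). Their sums were lower with Cre without overlap, at 139.6 to 143.2 and 122.7 to 134.7 CPM in medium and 135 to 139.9 and 130.1 to 132.7 CPM with agonist. Most of this sum was Slco1a4, a transporter of brain endothelium, with a mean of 91.2 CPM (-0.12 ± 0.04, edgeR adjusted p = 0.489). Of the 7 endothelial markers tested 0 separated in both states. Of 13 tested neuron markers 0 were called (median -0.02), with 3 higher and 1 lower at an unadjusted p under 0.05. Likewise 0 of 13 ependymal and cilia genes (median -0.03) and 0 of 9 pericyte and smooth muscle markers (median -0.02) were called. Of 11 fibroblast and meningeal markers Pdgfra, which these cells express too, was called (median 0.03), and the summed level overlapped at 1674 to 1852 and 1691 to 2102 CPM in medium. The part of these markers in the changes of the called genes was not tested.

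Lung fibroblasts of 3 further lines, with biosensors for Gai, Gaq and Ga13, received the same viruses diluted 1000-fold and 100 µM TRAP-6 as agonist. Cell type, allele, number of cells seeded, dose of virus and agonist differ together from those of the astrocytes and cannot be told apart. Cre was accompanied by 3 called genes of 15980 in Gai (0.0188%), 942 of 15528 in Gaq (6.07%) and 8 of 15835 in Ga13 (0.0505%). Of the 13 genes called in astrocytes Pdgfra, Myo5b, Trim30a and Nnat were tested in all 3. Pdgfra was at 0.05 ± 0.07 in Gai, 0.14 ± 0.03 in Gaq (edgeR adjusted p = 0.0048) and 0.03 ± 0.05 in Ga13. The difference between astrocytes and the mean of the 3 lines, tested in 1 fit over 48 libraries, was 0.28 ± 0.06 (edgeR adjusted p = 0.0382), one of 14 genes called of 19316 (0.0725%). That call was lost in 11 of 12 fits that left out an astrocyte library (edgeR adjusted p up to 0.11) and without the Gaq or the Ga13 line (0.12 and 0.107).

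Trim30a went the other way in fibroblasts, at 0.28 ± 0.09 in Gai, 0.60 ± 0.15 in Gaq (edgeR adjusted p = 0.0409) and 0.29 ± 0.21 in Ga13. Its difference was -0.65 ± 0.16 (edgeR adjusted p = 0.132) and did not pass. Myo5b was at 0.18 ± 0.16, 0.45 ± 0.08 (edgeR adjusted p = 0.000176) and 0.09 ± 0.07, and its difference was 0.18 ± 0.12 (edgeR adjusted p = 0.759). Sox10 was at 0 to 1.37 CPM in all fibroblast libraries, and its difference was 0.89 ± 0.26 (edgeR adjusted p = 0.2). The interferon list's median was -0.12 in astrocytes and 0.18, 0.35 and 0.26 in Gai, Gaq and Ga13, with 0 of 54, 9 of 54 and 0 of 53 members rising and none falling, beside 3.49% of all genes tested rising in Gaq. Without the libraries numbered 2 the astrocyte median was -0.04. The difference between these medians was not tested.

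**Figure D5:**
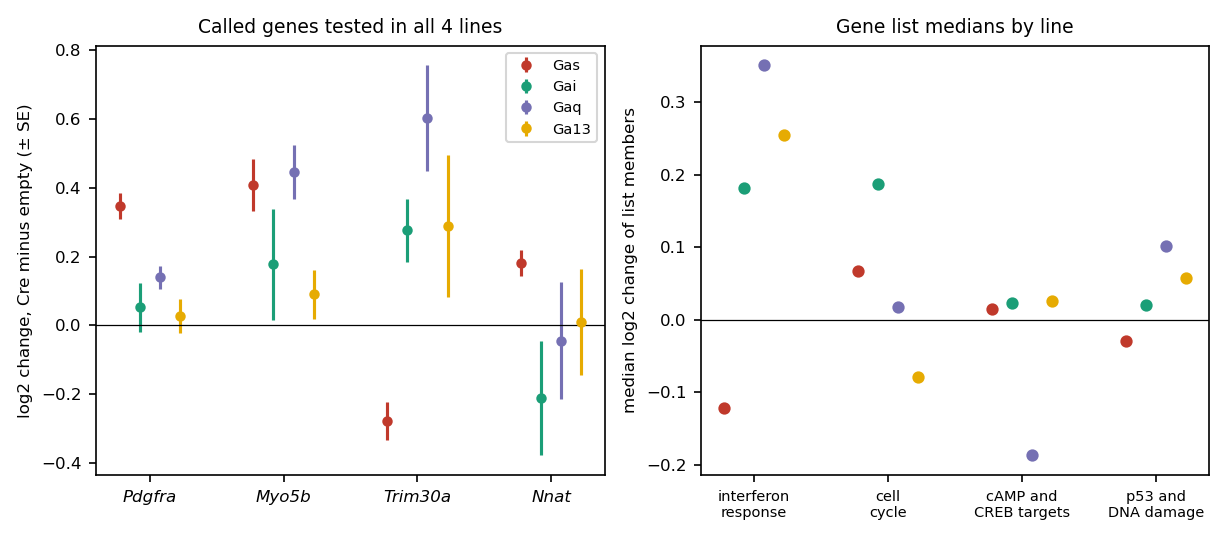
Left, log2 change with Cre virus (vertical axis, bars ± SE) of the 4 called genes that were tested in astrocytes (Gas, red) and in the Gai, Gaq and Ga13 fibroblasts. Right, the median log2 change of 4 gene lists in the same lines, where the interferon list is at -0.12 in astrocytes (-0.04 without the libraries numbered 2) and between 0.18 and 0.35 in fibroblasts.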

How the data were processed

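Poly-A selected RNA of 12 astrocyte libraries (6 Cre, 6 empty virus) was compared. The authors deposited raw read counts per gene. The tools fastp, Subread and featureCounts and the build GRCm39 are named in the submitters' processing notes. Versions, gene annotation and strandedness are not given in the sources used here. The table held 50764 entries, and its 15 mitochondrially encoded entries were at 0 counts. The biosensor entry was kept out of all counts of genes. In R 4.3.3, genes passing filterByExpr by group (18103) were scaled by TMM and tested with edgeR 4.0.16 (robust quasi-likelihood, state plus virus, two-sided, adjusted p under 0.05). A fit with 1 mean per group gave each state and their difference, and 1 fit over 48 libraries the difference from fibroblasts. Levels are CPM of the total count, and 16.3 to 35.9 M counts per library gave a median SE of 0.08 (log2). DESeq2 1.42.0, limma 3.58.1, other filters and scalings, a replicate block and left-out libraries were alternatives. Replicates within a group were not duplicates (chi-square per degree of freedom 3.20 to 9.30).

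Genes named were, leaving out Gm, Rik and pseudogene symbols, the called genes, all oligodendrocyte and Rosa26 list members, and up to 3 members of each other list by p, with exceptions marked. Results for some genes are not reported here. The 26 lists hold 615 genes. Members and lists were chosen with earlier results of these data known. Scripts were tested on simulated data. Promoters come from RefSeq (GRCm38.p6) and overlaps from GENCODE M21 (GRCm38), which held 101 of the 102 named genes.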

Additional observations from a re-analysis of the deposited data

Results flagged for a closer look

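The effect of Cre differed between astrocytes and the mean of the 3 fibroblast lines for 14 genes, by the test of the difference in a fit over 48 libraries (edgeR adjusted p under 0.05). The differences for 13 of them, astrocytes minus fibroblasts on the log2 scale, were -0.44 for Efemp1 (edgeR adjusted p = 0.00228), an extracellular matrix glycoprotein, -0.55 for the sodium channel subunit Scn3b, -0.51 for Scube3, -0.19 for the collagen lysyl hydroxylase Plod2 and -0.27 for the semaphorin Sema3c (0.0222 each). They were -0.38 for Synpo2 (0.037), 0.28 for Pdgfra (0.0382), and, at 0.0385 each, -0.34 for the TGF-beta co-receptor Tgfbr3, -0.25 for the apoptosis gene Pmaip1, 0.23 for Gm7901, 0.23 for Jpt1, 0.23 for Lpcat1 and 0.23 for Pck2. Of these, Pdgfra was the gene called in astrocytes on their own. Efemp1 was at -0.23 in astrocytes and 0.57 ± 0.05 in Gaq, against -0.01 in Gai and 0.09 in Ga13. Without the Gaq line 0 of the 14 were called, and Efemp1 was at -0.27 (edgeR adjusted p = 0.536). Efemp1 was called in all 12 fits that left out an astrocyte library, and the others were lost in 4 to 11 of them.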

How the results depend on the processing

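The count of 13 astrocyte genes was 39 with no filter beyond 1 count, 25 with DESeq2 (all 13 among them), 8 without robust estimation and 1 to 19 without 1 library or without the libraries of 1 number. The count in medium was 12 with no filter, 2 with DESeq2 and 1 to 4 without a library. The count with agonist was 0 with at least 1 CPM in 6 libraries and 0 to 3 without a library. The count of differences between states was 0 in every setting run. The labels give no shared source for a replicate number, and 1 of 18 same-number correlations of deviations was over 0.1 (-0.0186 to 0.102), so the numbers were not used as pairs. As a hint of pairing in the data, 17 of these 18 and 11 of 36 others were above 0, and 10 of 12 libraries were closest to their own number. The replicate block gave 18 calls, all 13 among them, with Eif2ak2 (0.0362), Bcan (0.0445) and Atp6v0a2 (0.0353) added. The count of differences from fibroblasts, 14, was 55 with DESeq2, 145 with no filter, 131 with the replicate block, 122 without the Gai line, 0 without the Gaq line and 1 to 21 without a library. Gai fibroblasts gave 1 gene with RLE scaling and 32 with the replicate block, and Ga13 fibroblasts 25 with the replicate block. The cause of these moves was not tested. For the 102 named genes the alternatives gave 2343 values, of which 2207 kept their sign and their side of the threshold. Most of these genes were not called to begin with, so that share says little about the 13 calls. Calls were lost in 102 values, all of them from the 13 called genes, and gained in 13. A further 21 values of uncalled genes changed sign, and no called gene did. Other scalings moved the median of all genes by under 0.01. Depth limits low genes: the median SE was 0.08 over all genes and 0.07 at 1 CPM or more.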

Other observations

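Among genes under the filter on low counts, 2 had counts in all 6 Cre libraries and in no empty-virus library, 1700030C10Rik with 16 counts and Gm16104 with 18, and 0 showed the reverse. With counts in at least 5 libraries of one virus and none of the other there were 8 and 6. Total counts were 151.9 M over the Cre and 130.4 M over the empty-virus libraries. Crhbp, which encodes a binding protein of corticotropin-releasing hormone, passed that filter by its counts with agonist. With that filter edgeR did not call it in medium or in the difference between states. It had 19 counts with Cre and 0 with empty virus in medium. Against an assumed floor of 3 counts over the group this was 4.52-fold, a value without an interval and not a lower limit. With agonist it had 365 and 321 counts, a ratio of 1.17 (95% exact interval 1.01 to 1.37). These genes were chosen after their values were seen, and the exact interval covers counting error only.

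DESeq2 called 12 genes beyond the 13, chosen here by that call. They include Eif2ak2 (log2 change -0.22, DESeq2 adjusted p = 0.0186), the oligodendrocyte gene Bcas1 (0.36, 0.026), the proteoglycan gene Bcan (0.16, 0.0195), the vesicular proton pump subunit Atp6v0a2 (0.15, 0.000586), Nell2 (0.18, 0.0196), the postsynaptic scaffold gene Dlgap3 (0.66, 0.0186) and Marcksl1 (0.14, 0.0491). None of the 12 passed edgeR's test with the filter on low counts and no block. With no filter beyond 1 count edgeR called Eif2ak2 (adjusted p = 0.007), Bcan (0.0112), Bcas1 (0.0248), Dlgap3 (0.00334), Atp6v0a2 (0.0306) and Nell2 (0.0337). At this setting edgeR also called the interferon list genes Oasl2 (adjusted p = 0.00104), Ifi44 (0.00334) and Usp18 (0.0458), all lower with Cre.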
